A study of Mus musculus with 2 samples.

Results

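The genes described here are 7 of lysophospholipid signalling, among the 17270 genes with a symbol in a table of normalized counts from activated mouse macrophages. They are Enpp2, Lpar5, Lpar6, S1pr1, Sphk1, Plpp1 and Plpp3. They were taken by symbol from a fixed list of autotaxin and of receptors, phosphatases and a kinase of lysophospholipids. The list was chosen by name, with the KO and WT normalized counts of these same columns already known, so the values of the 7 genes are a description and carry no test. The KO group was macrophages of Ninj1-/- mice and the WT group macrophages of Ninj1+/+ mice, both from mice aged 6 weeks. Ninj1 encodes ninjurin 1, a membrane protein that breaks the plasma membrane open when cells die by lysis. Cells of both groups were derived from marrow of the long bones over 7 days in the growth factor M-CSF, then given the bacterial lipid LPS (500 ng/ml) together with IFNγ (20 ng/ml), which drive classical activation. Both groups therefore carried the same activating agents, and untreated cells were not analysed here. The labels do not say which exons the Ninj1 allele lacks, how many mice were used or whether cells were pooled.

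Autotaxin, the product of Enpp2, is a secreted lysophospholipase D that makes lysophosphatidic acid (LPA) from lysophosphatidylcholine outside the cell. LPA and the related lipid sphingosine 1-phosphate (S1P) act through G-protein-coupled receptors, among them those encoded by Lpar5, Lpar6 and S1pr1, while Sphk1 encodes a kinase that makes S1P. Plpp1 and Plpp3 encode lipid phosphate phosphatases, membrane enzymes that take the phosphate off both lipids and so end their action. In macrophages these lipids are known for effects on migration, survival and cytokine output.

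GEO registers 1 sample per genotype, but the table holds 2 columns for each, called KO columns 1 and 2 and WT columns 1 and 2 here. Nothing says whether the columns of a genotype are separate mice, cultures or library preparations. Errors and p-values therefore measure only spread between columns, of a gene or shared over genes, and that spread may be technical. The KO columns held 62684262 and 51859103 reads and the WT columns 46798381 and 53928636. The targeted gene matched the labels: Ninj1 had 3519 and 4086 normalized counts in KO columns, against 28850 and 31158 in WT columns. No batch, date or run is given for any column. Of the 17270 genes, 12872 had at least 20 reads in some column and were tested, all 7 described here among them. Sphk1 passed that filter only through its WT columns, since it had 14 and 12 reads in KO columns.

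The 7 genes fell into 2 patterns. Enpp2, Sphk1 and Lpar5 were lower in both KO columns than in either WT column, at 29.5%, 40.5% and 58.6% of the WT mean. In the other 4, Lpar6, S1pr1, Plpp1 and Plpp3, the columns of the genotypes overlapped and the KO mean lay between 95.1% and 106% of the WT mean. Over all genes tested, 51.1% had genotypes that did not overlap, 25.6% lower in KO and 25.5% higher, and since the genes were picked with these values known nothing is read from their count of 3 lower and 0 higher. By limma, a linear model over all genes that shares the estimate of spread between them, 2.91% of genes tested were called at an adjusted p below 0.05, 215 higher in KO and 160 lower. Each SE given with a log2 ratio is from this model and rests mostly on the spread of other genes. It was 0.53 for Sphk1 and 0.30 for Lpar5, above their own pooled SD within genotypes of 0.17 and 0.16 on the log2 scale. For Enpp2 it was 0.29, below its own 0.42. Removing each column's dependence on GC content and length together with its mean level gave 297 higher and 91 lower, and removing the dependence alone gave 103 and 95. The median log2 ratio, KO minus WT on log2(normalized count + 1), was -0.07 over the 7 genes, against -0.0034 over all genes tested. The plot of normalized counts by column shows the separation of the first 3 genes.

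**Figure D1:**
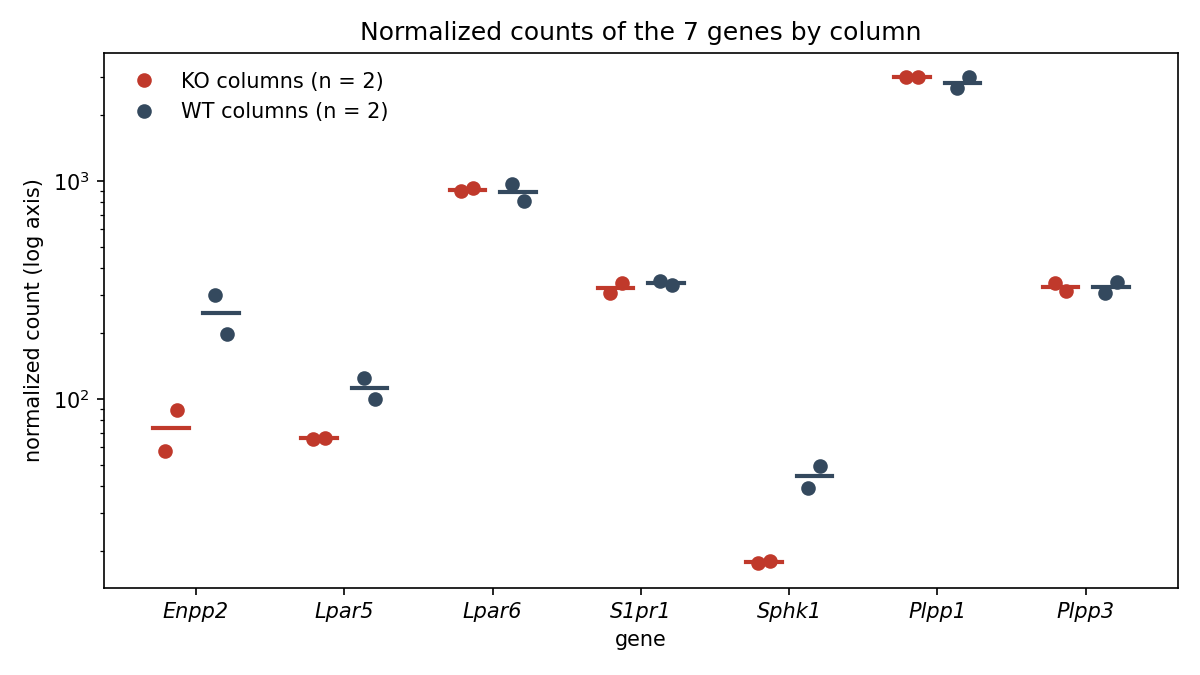
Normalized counts (log axis) of the 7 genes, with each point 1 column, KO left of WT, and a bar at the mean of the 2 columns of a genotype. Enpp2, Lpar5 and Sphk1 have both KO columns below both WT columns, with KO means of 73.6, 66.0 and 17.9 against WT means of 249, 113 and 44.2, while the columns of the other 4 genes overlap.

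Enpp2, which encodes autotaxin, had the largest difference. It had 58.0 normalized counts in KO column 1 and 89.2 in KO column 2, against 299 in WT column 1 and 199 in WT column 2. The groups did not overlap, and the lower WT column was 2.24-fold above the higher KO column. The columns within a genotype also lay apart, column 2 minus column 1 being 0.61 in KO and -0.58 in WT on the log2 scale. The means were 73.6 ± 22.0 in KO and 249 ± 70.1 in WT (SD, n = 2 columns each), a log2 ratio of -1.75 (SE 0.29), or 3.38-fold lower. These values rested on 46 and 59 reads in KO columns and 184 and 141 reads in WT columns. Of all genes tested, 0.334% had a lower ratio than Enpp2. That share was 0.715% for Sphk1, 2.84% for Lpar5 and 36.7% to 67.1% for the other 4. These shares are ranks and no test, since the genes were picked with their values known. With 1 column left out the ratio lay between -2.05 and -1.44. In bulk samples, fewer cells that express a gene and less RNA of it per cell cannot be told apart.

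Enpp2 lies on chromosome 15, 54838901 to 54952892, on the minus strand (GENCODE M21, GRCm38, which is the mm10 assembly), and its start overlaps the non-coding gene Gm26684 on the other strand. Among its relatives, Enpp4, whose product cleaves dinucleotides, was the more abundant per transcript length, with 348 ± 12.1 normalized counts per kilobase in KO and 349 ± 15.6 in WT (SD, n = 2 columns each). Enpp2 stood at 18.7 and 28.8 normalized counts per kilobase in KO columns and 96.5 and 64.4 in WT columns. Its share of the summed level per kilobase of 5 listed ENPP genes was thus 4.83% and 7.58% in KO columns, against 21.3% and 14.7% in WT columns. Enpp1 and Enpp4 did not pass the limma test: the log2 ratio of Enpp1, which hydrolyses extracellular nucleotides, was -0.30 (adjusted p = 0.628), and that of Enpp4 was -0.0034 (adjusted p = 0.989).

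Fibroblasts and other stromal cells also make autotaxin, and stromal transcripts differed in the same columns. The 10 stromal markers summed to 456 and 366 normalized counts in KO columns, against 716 and 806 in WT columns. By limma with Benjamini-Hochberg adjustment, 2 of the 7 tested fell, Col1a1 and Col1a2. Both passed the filter on reads only through WT columns, with 2 reads of Col1a1 and 0 of Col1a2 in each KO column. Col1a1, a type I collagen chain, had 2.52 and 3.02 normalized counts in KO columns, against 149 and 136 in WT columns. Col1a2, Col3a1, Pdgfra, Thy1, Postn and Cxcl12 were at 0 in both KO columns. In WT columns Col1a2 had 97.4 and 146 normalized counts, Col3a1 29.2 and 28.3 and Postn 16.2 and 28.3. Pdgfra and Thy1 were at 0 in WT column 1 and had 5.66 in WT column 2, while Cxcl12 had 6.49 and 0. Dcn had 111 and 78.6 in KO columns, against 166 and 133 in WT columns. Pdgfrb had 25.2 and 24.2 in KO columns, against 37.3 and 28.3 in WT columns. Lum was not lower in the same way, with 318 and 260 normalized counts in KO columns, against 214 and 296 in WT columns. The part of stromal RNA in the difference of Enpp2 was not tested.

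The cells otherwise carried the RNA of macrophages. The 8 macrophage markers summed to between 1046070 and 1063990 normalized counts in KO columns and between 974636 and 1056160 in WT columns, and 2 of them fell, Mertk and Itgam. Markers of lymphocytes, which are known for S1pr1, summed to 13.9 and 28.7 normalized counts in KO columns, against 11.4 and 19.8 in WT columns, with Cd3d at 0 in every column. The 6 endothelial markers in the table summed to 14741 and 13541 normalized counts in KO columns, against 16371 and 15189 in WT columns. By column, Kdr had 8649 to 9693 normalized counts in KO and 9182 to 10356 in WT, Eng 3349 to 3728 in KO and 3773 to 4355 in WT, Vwf 1259.5 to 1494 in KO and 1571 to 2171 in WT, and Cdh5 31.7 to 50.4 in KO and 61.7 to 65.1 in WT. Tek and Egfl7 had at most 13.6 normalized counts in any column. Of the 4 endothelial markers tested, 0 were called by limma and 2, Eng and Vwf, had an unadjusted p under 0.05. The 6 dendritic cell markers summed to 13459 and 13907 normalized counts in KO columns, against 9738 and 8957 in WT columns. Nearly all of these sums was Xcr1 and Ccr7, which rose by limma, so they do not speak for the whole list. Clec9a was not called (limma adjusted p = 0.627). Flt3 had 2.52 and 9.07 normalized counts in KO columns, against 14.6 and 11.3 in WT columns. Zbtb46 had at most 18.1 in any column, and Siglech was at 0 in every column. The part of these cell types in the values of the 7 genes was not tested.

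Both LPA receptors among the 7 genes were minor receptors by level, and they differed from each other in pattern. Lpar5 had 65.6 and 66.5 normalized counts in KO columns, against 125 and 100 in WT columns. The groups did not overlap, and the lower WT column was 1.51-fold above the higher KO column. The log2 ratio was -0.75 (SE 0.30), from means of 66.0 ± 0.66 in KO and 113 ± 17.3 in WT (SD, n = 2 columns each). Lpar5 encodes a receptor coupled to Gq and G12/13, and it was counted with 52 and 44 reads in KO columns and 77 and 71 reads in WT columns. Lpar6, whose human counterpart is known from inherited hair loss, had 900 and 925 normalized counts in KO columns, against 967 and 805 in WT columns. Both KO columns lay between the WT columns, and the log2 ratio was 0.05 (SE 0.12), and it became -0.05 once GC content and length were corrected for. Lpar5 lies on chromosome 6, 125067920 to 125082472, on the plus strand. Lpar6, on chromosome 14, 73237895 to 73243294, lies inside Rb1 on the opposite strand, so reads of the 2 genes could be confused if strand was not used in counting, which is not given in the sources used here. Rb1 had 1655 and 1720 normalized counts in KO columns, against 1626 and 1389 in WT columns (log2 ratio 0.17, limma adjusted p = 0.379).

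Per transcript length, Lpar1 was the highest LPA receptor in every column, followed by Lpar6. Lpar1, a receptor of the endothelial differentiation gene family, stood at 1373 ± 123 normalized counts per kilobase in KO and 1223 ± 33.1 in WT (SD, n = 2 columns each), or 81.2% to 84.5% of the summed LPA receptor level in KO columns and 77.4% to 82.0% in WT columns. Lpar6 stood at 169 ± 3.22 normalized counts per kilobase in KO and 164 ± 21.3 in WT. Lpar2 and Lpar5 came next, at 66.9 ± 15.6 and 45.3 ± 0.45 normalized counts per kilobase in KO and at 70.1 ± 20.8 and 77.3 ± 11.9 in WT; in WT columns they did not differ beyond their spread. Lpar4 had at most 12.1 normalized counts in any column. Lpar6 exceeded Lpar5 per kilobase by 3.71-fold and 3.76-fold in KO columns, against 2.09-fold and 2.16-fold in WT columns. The summed level of the 5 receptors was 1656 ± 101 normalized counts per kilobase in KO and 1535 ± 21.4 in WT. Of the LPA receptors outside the 7 genes, Lpar1 (log2 ratio 0.16, limma adjusted p = 0.271) and Lpar2 (-0.05, adjusted p = 0.916) did not pass the test.

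S1pr1, the S1P receptor known for the exit of lymphocytes from lymphoid organs, overlapped between genotypes. It had 305 and 342 normalized counts in KO columns, against 347 and 332 in WT columns, a log2 ratio of -0.07 (SE 0.16). KO column 2 lay between the WT columns and KO column 1 below them. S1pr1 lies on chromosome 3, 115710433 to 115715072, on the minus strand. Per kilobase it stood at 106 ± 8.45 in KO and 112 ± 3.46 in WT (SD, n = 2 columns each). The leading S1P receptor was S1pr2, which couples to G12/13, with 844 ± 45.1 normalized counts per kilobase in KO and 934 ± 18.4 in WT. S1pr2 took 86.1% to 89.2% of the summed S1P receptor level in KO columns and 87.3% to 88.7% in WT columns, and S1pr1 took 10.2% to 11.9% in KO columns and 10.5% in each WT column. S1pr2 lay lower in both KO columns but did not pass the test (log2 ratio -0.15, limma adjusted p = 0.285), nor did S1pr4 (-0.27, adjusted p = 0.866).

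Sphk1 was the least abundant of the 7 genes. Its product, sphingosine kinase 1, phosphorylates sphingosine to S1P near the plasma membrane. It had 17.7 and 18.1 normalized counts in KO columns, against 38.9 and 49.5 in WT columns, with no overlap and the lower WT column 2.15-fold above the higher KO column. The log2 ratio was -1.25 (SE 0.53), or 2.47-fold lower by the means. In reads, the KO columns held 14 (exact 95% Poisson interval 7.65 to 23.5) and 12 (6.20 to 21.0), against 24 (15.4 to 35.7) and 35 (24.4 to 48.7) in WT columns. The intervals of both KO columns overlap that of WT column 1, and they cover counting error only and are too narrow where both mates of a pair were counted. Sphk1, on chromosome 11, 116530925 to 116536674, overlaps the antisense gene Gm29292 at chromosome 11, 116529215 to 116533077.

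The other sphingosine kinase gene, Sphk2, carried nearly all of the summed kinase level. Per kilobase Sphk2 exceeded Sphk1 by 694-fold and 699-fold in KO columns, against 333-fold and 270-fold in WT columns. The KO folds rest on 14 and 12 reads of Sphk1 and are imprecise. Their difference from WT mostly restates that of Sphk1. Sphk2, whose product is known from the nucleus and mitochondria, stood at 3067 ± 74.5 normalized counts per kilobase in KO and 3239 ± 67.3 in WT (SD, n = 2 columns each; log2 ratio -0.08, limma adjusted p = 0.549). The summed level of the 2 kinases was 3072 ± 74.6 normalized counts per kilobase in KO and 3250 ± 69.2 in WT, 94.5% of WT. Of 8 further genes of S1P enzymes, transporters and its carrier in the table, 5 were tested, Sphk2 included, and 0 were called by limma (0 at an unadjusted p under 0.05). The phosphatase gene Sgpp2 stayed under the filter, with 6.49 to 12.1 normalized counts over the 4 columns. Sgpl1, the lyase that breaks S1P down, stood at -0.12 on the log2 scale (limma adjusted p = 0.350), and Abcc1, an exporter known to carry S1P, at -0.03 (adjusted p = 0.872).

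Plpp1 and Plpp3, the phosphatase genes among the 7, overlapped between genotypes. For Plpp1 the overlap was narrow, with KO column 2 at 2981.36 and WT column 2 at 2981.41 normalized counts. Plpp1 was the most abundant of the 7 genes, with 2984 and 2981 normalized counts in KO columns, against 2656 and 2981 in WT columns. WT column 1 stood below the other 3 columns and the log2 ratio was 0.08 (SE 0.08). Plpp3 had 342 and 313 normalized counts in KO columns, against 305 and 345 in WT columns, with a log2 ratio of 0.01 (SE 0.17). Both Plpp3 values in KO lay between those in WT. Plpp1 exceeded Plpp3 per kilobase by 17.3-fold and 18.8-fold in KO columns, against 17.2-fold and 17.1-fold in WT columns. Plpp1 took 57.0% and 58.2% of the summed level of 6 lipid phosphate phosphatase genes in KO columns, against 55.8% and 56.8% in WT columns. Plpp5 came next at 687 ± 0.84 normalized counts per kilobase in KO and 628 ± 31.5 in WT (SD, n = 2 columns each; log2 ratio 0.13, limma adjusted p = 0.493). Plpp3 lies on chromosome 4, 105157347 to 105232764, and Plpp1 on chromosome 13, 112800792 to 112867894, both on the plus strand. The end of Plpp1 overlaps Skiv2l2 (Mtrex) on the opposite strand, at 5700 and 5574 normalized counts in KO columns, against 5180 and 5284 in WT columns.

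**Figure D2:**
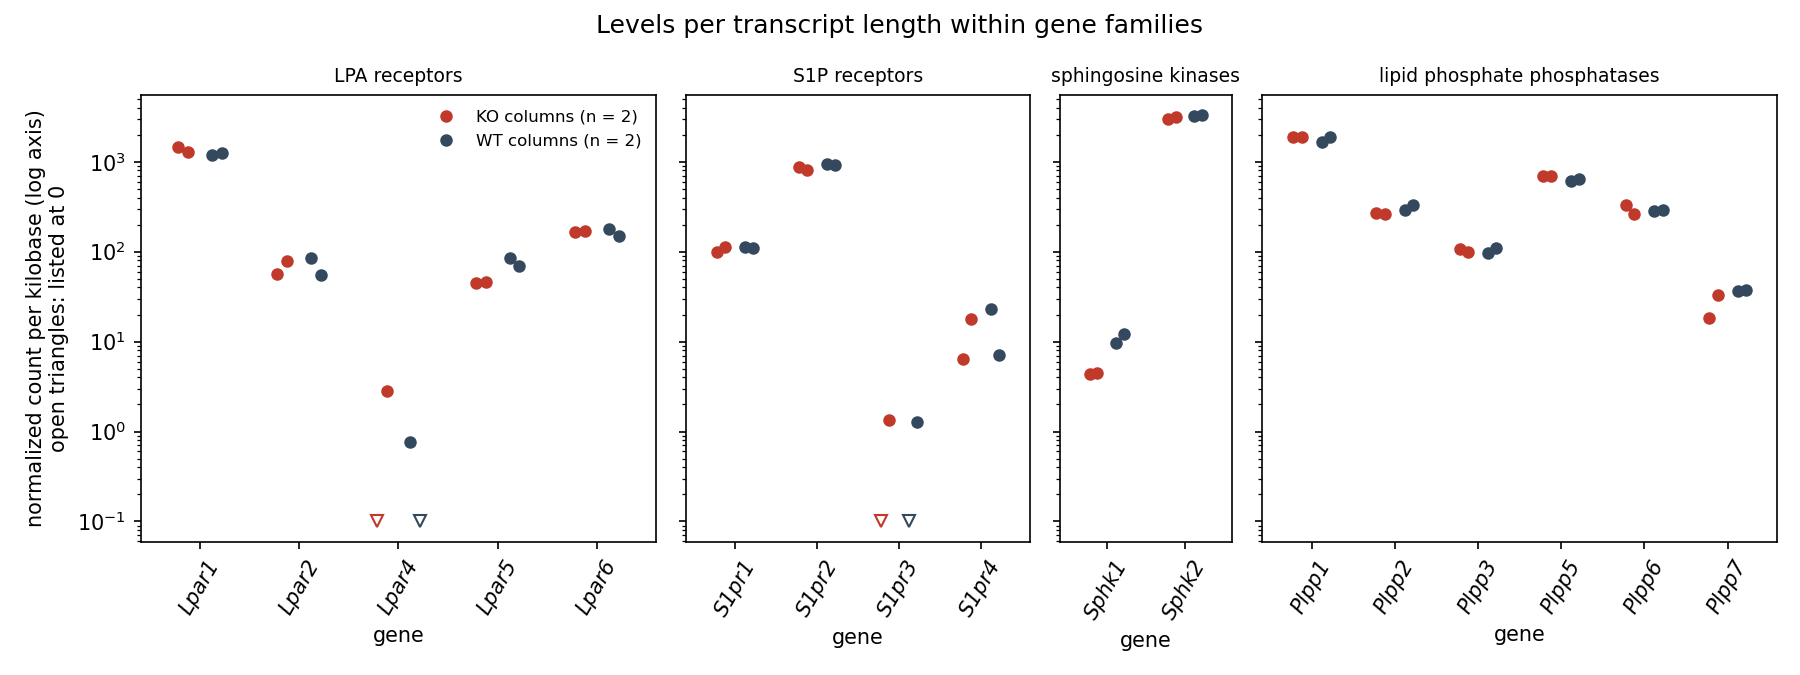
Normalized counts per kilobase of the longest annotated transcript (log axis) for LPA receptors, S1P receptors, sphingosine kinases and lipid phosphate phosphatases, with each point 1 column, KO left of WT, and open triangles for a gene listed at 0. Lpar1, S1pr2, Sphk2 and Plpp1 lead their families in every column, and Lpar5 and Sphk1 are low members of theirs.

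Within all 7 genes the order per kilobase in KO was Plpp1 (1867 ± 1.27), Lpar6 (169 ± 3.22), S1pr1 (106 ± 8.45), Plpp3 (104 ± 6.46), Lpar5 (45.3 ± 0.45), Enpp2 (23.8 ± 7.12) and Sphk1 (4.40 ± 0.084). In WT it was Plpp1 (1764 ± 144), Lpar6 (164 ± 21.3), S1pr1 (112 ± 3.46), Plpp3 (103 ± 8.96), Enpp2 (80.5 ± 22.7), Lpar5 (77.3 ± 11.9) and Sphk1 (10.9 ± 1.84), all in normalized counts per kilobase (SD, n = 2 columns). S1pr1 and Plpp3 overlapped in both genotypes. Enpp2 and Lpar5 overlapped in WT, while in KO both Enpp2 columns lay below both Lpar5 columns.

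Promoter sequences are shown for the 2 genes that were lower in KO and have an entry in the RefSeq promoter table (GRCm38.p6), as context for genes that differed in the same direction. The table matched 4 of the 7 genes, Lpar5, Lpar6, Sphk1 and Plpp3, and not Enpp2, S1pr1 and Plpp1. Each line gives the 250 bases before a transcription start, 5′ to 3′ on the gene's strand, for both starts of Lpar5 and for 2 of the 5 starts of Sphk1. Capitals mark matches to any of 8 searched motifs on either strand.
Lpar5, first start, chr6:125067670-125067919, + strand: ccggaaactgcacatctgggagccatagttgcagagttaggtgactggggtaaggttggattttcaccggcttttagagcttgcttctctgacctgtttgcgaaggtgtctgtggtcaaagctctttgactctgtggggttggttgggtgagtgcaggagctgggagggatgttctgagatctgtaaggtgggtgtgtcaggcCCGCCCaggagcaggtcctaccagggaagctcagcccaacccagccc
Lpar5, second start, chr6:125071085-125071334, + strand: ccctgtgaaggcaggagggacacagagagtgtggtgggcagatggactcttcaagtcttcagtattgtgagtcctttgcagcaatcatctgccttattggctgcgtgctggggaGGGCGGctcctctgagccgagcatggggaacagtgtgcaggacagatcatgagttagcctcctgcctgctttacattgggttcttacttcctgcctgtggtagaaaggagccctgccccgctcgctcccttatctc
Sphk1, first start, chr11:116530850-116531099, + strand: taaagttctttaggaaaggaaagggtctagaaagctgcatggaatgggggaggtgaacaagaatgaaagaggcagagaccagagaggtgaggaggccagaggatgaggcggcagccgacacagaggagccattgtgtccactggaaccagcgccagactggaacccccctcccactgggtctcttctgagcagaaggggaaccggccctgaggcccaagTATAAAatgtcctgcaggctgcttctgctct
Sphk1, second start, chr11:116531587-116531836, + strand: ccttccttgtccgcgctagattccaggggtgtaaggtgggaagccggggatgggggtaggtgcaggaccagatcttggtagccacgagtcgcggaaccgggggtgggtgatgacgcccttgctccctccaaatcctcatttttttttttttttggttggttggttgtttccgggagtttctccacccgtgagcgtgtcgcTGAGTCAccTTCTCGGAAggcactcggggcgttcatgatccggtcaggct

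The motifs were the TATA box (TATAAA), the GC box (GGGCGG), the AP-1 site (TGANTCA), the interferon-stimulated response element, the gamma-activated site (TTCNNNGAA), the PU.1 core (GAGGAA), the NF-kB site and the CArG box of serum response factor. Each Lpar5 window held 1 GC box, 47 to 42 bases before the first start on the reverse strand and 136 to 131 bases before the second start on the forward strand. Of 32536 distinct windows of 250 bases, 33.0% held a GC box. The first Sphk1 window held a TATA box 31 to 26 bases before the start, found in 12.3% of windows. The second held an AP-1 site 50 to 44 bases and a gamma-activated site 41 to 33 bases before the start, found in 6.73% and 7.04% of windows. The window of the third start, chr11:116531661-116531910, overlapped the second window and held the same pair of sites, not a further pair. The matches marked in capitals did not overlap each other, and no motif was shared by the windows of Lpar5 and Sphk1. The windows of Lpar6 and Plpp3 held none of the 8 motifs. A match is a description of these letters and does not show binding.

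The genes whose 4 column values, centred on their mean log2 level, lay closest to each of the 3 lower genes were looked up, leaving out genes that stayed under 100 reads everywhere. Likeness is the Euclidean distance over 4 columns, so a small value means a like profile. For Enpp2 these were Steap4 (0.671), a metalloreductase, Creg2 (0.680), a secreted glycoprotein, and Zfp366 (0.719), a zinc finger gene. For Lpar5 they were Clstn1 (0.0671), Il18rap (0.0797), the accessory chain of the interleukin-18 receptor, and Cep85l (0.0942). For Sphk1 they were Slc15a2 (0.406), a peptide transporter, Timp1 (0.442), an inhibitor of matrix metalloproteinases, and Neo1 (0.460), a guidance receptor. All 9 genes were lower in both KO columns than in either WT column; they were picked for lying near genes of that pattern. Steap4 had 63.0 and 142 normalized counts in KO columns, against 248 and 246 in WT columns.

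Beyond the 7 genes, 12 lists of lysophospholipid genes gave 106 further genes, of which 94 were in the table and 81 were tested. By limma with Benjamini-Hochberg adjustment over all genes tested, 1 rose, 2 fell and 78 did not pass. That is 1.23% called higher and 2.47% called lower, against 1.67% and 1.24% of all genes tested. The median log2 ratio of the 81 genes was -0.03, against -0.0034 over all genes tested, and 12 of them (14.8%) had an unadjusted p under 0.05, against 19.8% of all genes tested, the share to read the counts of single lists against.

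The 3 called genes came from separate lists. Ctgf, a secreted matrix protein and a response gene of the YAP and serum response factor pathways that LPA and S1P receptors are known to drive, had 22.7 and 27.2 normalized counts in KO columns, against 84.4 and 134 in WT columns. It fell by 2.06 on the log2 scale (SE 0.41, limma adjusted p = 0.0196). Ctgf passed the filter on reads only through WT columns, with 18 reads in each KO column, against 52 and 95 in WT columns. Stromal cells also make Ctgf, and the stromal markers above were lower in the same columns; their part in its difference was not tested. Pla2g15, the lysosomal phospholipase A2, had 1765 and 1934 normalized counts in KO columns, against 2812 and 2394 in WT columns, and fell by 0.49 on the log2 scale (SE 0.10, limma adjusted p = 0.0198). Rgs1, which damps signalling of Gi-coupled receptors, had 22229 and 22607 normalized counts in KO columns, against 19349 and 16081 in WT columns, and rose by 0.35 on the log2 scale (SE 0.08, limma adjusted p = 0.0404). The calls were sensitive to the columns and settings used, while the ratios kept their sign. With 1 column left out the log2 ratio ranged from -2.39 to -1.72 for Ctgf, from -0.61 to -0.37 for Pla2g15 and from 0.21 to 0.48 for Rgs1. Ctgf lost its call without KO column 1, WT column 1 or WT column 2 (limma adjusted p of 0.0709, 0.0954 and 0.0653), Pla2g15 without KO column 1 or WT column 1 (0.181 and 0.179) and Rgs1 without KO column 1, KO column 2 or WT column 2 (0.217, 0.165 and 0.0508). Ctgf also had no adjusted p by DESeq2 and did not reach a filter of 100 reads, and Rgs1 lost its call without a filter (0.0612) and with GC content and length corrected for (0.0601).

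The other 9 lists held no gene called by limma. Of 9 further LPA synthesis genes none was called and none had an unadjusted p under 0.05, with a median log2 ratio of -0.03; Gpat4, which makes LPA inside the cell, had a ratio of -0.01 and Gdpd1, an intracellular lysophospholipase D, of -0.16 (limma adjusted p of 0.938 and 0.465). Of 9 ceramidase and ceramide synthase genes none was called (0 at an unadjusted p under 0.05), with Cers2 at 0.02 and the lysosomal ceramidase Asah1 at 0.08. Of 13 lysophospholipid acyltransferases none was called (1 at an unadjusted p under 0.05), with Agpat1, which turns LPA into phosphatidic acid, at 0.03 and Lpcat2 at 0.03. Among 6 further tested genes of the phosphatase list none was called (1 at an unadjusted p under 0.05, Plppr2), with Plpp6 at 0.02. These include the phosphatase-related genes Plppr2 and Plppr3 and are not the 6 genes summed above. The 4 tested receptors for other lysophospholipids had ratios above 0 and none was called (1 at an unadjusted p under 0.05, P2ry10). P2ry10 passed the filter only through KO column 2, with 15 and 34 reads in KO columns, against 5 and 4 in WT columns. Gpr174, the listed gene not tested, had 10.1 and 9.07 normalized counts in KO columns, against 29.2 and 11.3 in WT columns. The shared sign thus held only among genes past the filter. Gpr132 stood at 0.15 and Gpr55, a receptor for lysophosphatidylinositol, at 0.02.

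The G protein subunit genes Gnai2 and Gna13, whose products couple to LPA and S1P receptors, had log2 ratios of 0.10 and 0.05 (limma adjusted p of 0.490 and 0.753). Of 8 tested lysophospholipases only Pla2g15 was called (3 at an unadjusted p under 0.05, Pla2g15 included). Lypla2 stood at -0.01 and Abhd12, a lipase for lysophosphatidylserine, at 0.09. Of 6 tested response genes of serum response factor and YAP only Ctgf was called (2 at an unadjusted p under 0.05, Ctgf and Acta2). Ratios were below 0 in 4 of the 6 and above 0 in 2. Acta2 had 84.5 and 87.6 normalized counts in KO columns, against 127 and 141 in WT columns (log2 ratio -0.63, limma adjusted p = 0.212). Srf itself stood at 0.03 (adjusted p = 0.863) and the focal adhesion gene Vcl at -0.10 (adjusted p = 0.533). The plot of ratios by list places the 7 genes beside those of 11 lists.

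**Figure D3:**
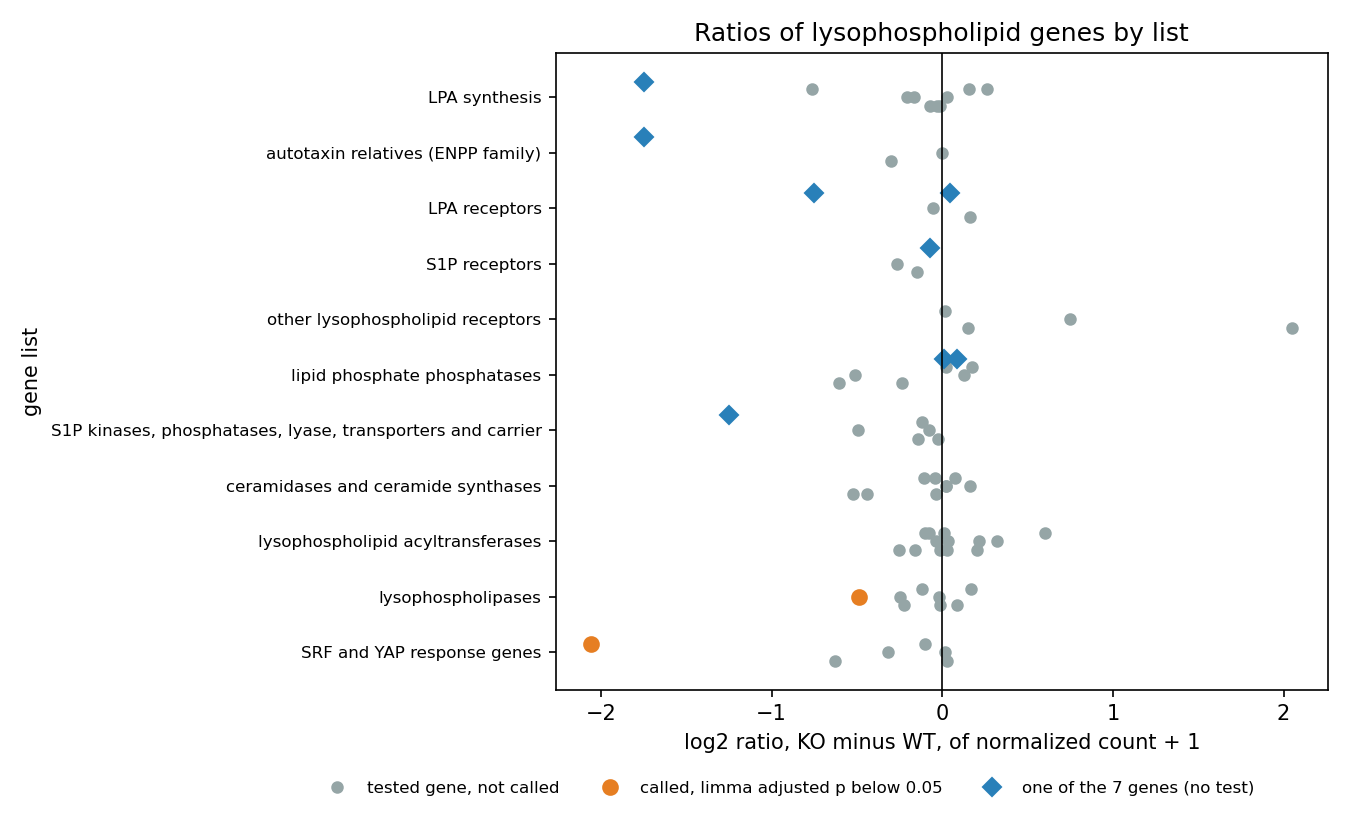
Log2 ratios, KO minus WT, of log2(normalized count + 1) for the tested genes of 11 of the 12 lists, 1 row a list and without the list of Rgs1, Gnai2 and Gna13, with the 7 genes as blue diamonds and genes called by limma in orange. Enpp2 at -1.75, Sphk1 at -1.25 and Lpar5 at -0.75 lie left of most points of their lists; the called genes shown are Ctgf at -2.06 and Pla2g15 at -0.49, both lower in KO, while Rgs1 at 0.35, the gene called higher, is in the list not drawn, and P2ry10 at 2.05 was not called (adjusted p = 0.162).

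**Figure D4:**
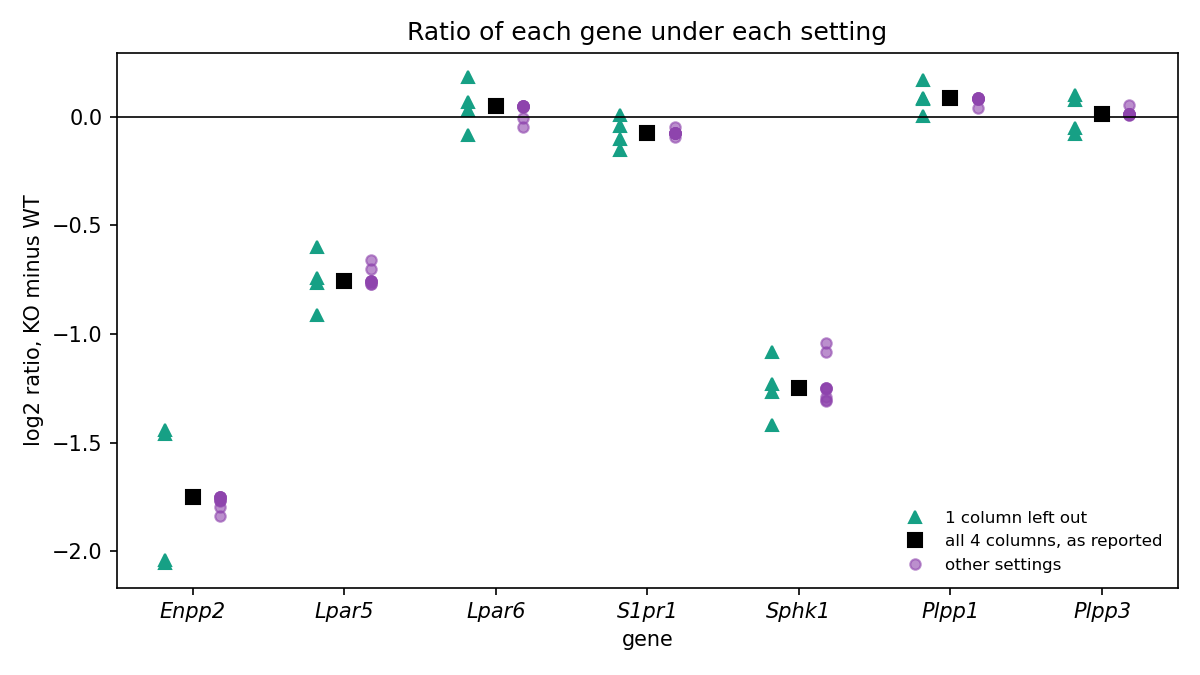
Log2 ratio, KO minus WT, of each of the 7 genes with all 4 columns (square), with 1 column left out (triangles) and under the other settings (circles). Enpp2 stays between -2.05 and -1.44, Sphk1 between -1.42 and -1.04 and Lpar5 between -0.91 and -0.60, while Lpar6, S1pr1, Plpp1 and Plpp3 lie between -0.15 and 0.18.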

How the data were processed

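Each value in the authors' table is a normalized signal for 1 gene in 1 column, and 100% of values came out as whole reads, within 0.01 reads, once divided by the column's step, so 1 read was worth 1.26 to 1.62 normalized counts. What the authors used to align, count and normalize is not given in the sources used here; mm10 and StringTie appear without roles, per the submitters' processing notes, and the mRNA kit was directional, per the labels' protocols. Of low recovered counts, 69.0% to 71.4% were even, so mates may be counted separately. The columns whose names lack KO were read as WT. Of 17271 rows, 1 named no gene (0.0272% to 0.0366% of a column) and was left out.

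Over 12872 genes with at least 20 recovered reads in a column, KO was compared with WT by limma 3.58.1 with a mean-variance trend on log2(normalized count + 1). P-values were adjusted over those genes by Benjamini-Hochberg and called below 0.05. This scale understates changes of low genes. There were 2 residual degrees of freedom and a prior of 12.2. On the recovered reads, edgeR 4.0.16 (quasi-likelihood) called 204 genes higher and 175 lower, and DESeq2 1.42.0 was also run. Levels per kilobase use the longest GENCODE M21 transcript of the Entrez identifier (15292 genes).

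The genes, lists and tests were chosen with earlier results of these data known. Named are the 7 genes, Ninj1, called list genes and the 2 genes per list with the highest level per kilobase. The 3 nearest profiles of the 3 genes with the largest ratios are also named. P2ry10, Gpr174, Acta2, Plppr2, Plppr3, Rb1, Skiv2l2, Lpar4, Sgpp2 and the markers were named after their values were seen. So were settled the 8 motifs, the promoters shown, the family sums and ratios per kilobase, and the refiltering of genes when a column is left out. The form of the GC and length correction was also changed after its counts had been seen, and both forms are reported. The counts of 1 list on its own, the one that holds Rgs1, Gnai2 and Gna13, are not reported here; its genes are part of the counts over all lists. R 4.3.3 and Python 3.11.15 were used.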

Additional observations from a re-analysis of the deposited data

How the results depend on the processing

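The 13 alternatives planned were edgeR, DESeq2, a pseudocount of 0.1, no filter, at least 100 reads, TMM scaling, median centring, correction for GC and length, a replicate block and leaving out each column; 1 more was added after seeing the data. The correction was first run by subtracting the whole fitted trend of each column, which also recentres the columns, and called 297 genes higher and 91 lower. Because it changed scaling as well, and after that lopsided split had been seen, it was replaced as the planned form by one that keeps each column's level, which called 103 higher and 95 lower; the first form is kept as the added alternative. The uncorrected fit called 215 and 160, and both forms ran on 11980 genes. The ratio of Sphk1 was -1.04 under the first form and -1.08 under the second, against -1.25 uncorrected, and that of Lpar6 was -0.0065 and -0.05, against 0.05. Among the 81 list genes the first form called 2 higher and 2 lower, the second 0 and 2; Rgs1 kept its call under the first (adjusted p = 0.0237) and lost it under the second (adjusted p = 0.0601).

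Under the planned settings that use all 4 columns, the ratios of the 7 genes moved by less than the spread between columns; Lpar5 and Sphk1 have none at 100 reads. Leaving out 1 of 2 columns cannot move a ratio by more than that spread, so it shows no stability; the ratios then ranged from -2.05 to -1.44 for Enpp2, -0.91 to -0.60 for Lpar5, -1.42 to -1.08 for Sphk1, -0.08 to 0.18 for Lpar6, -0.15 to 0.0075 for S1pr1, 0.00067 to 0.17 for Plpp1 and -0.08 to 0.10 for Plpp3. Over all genes, calls were 348 higher and 188 lower by DESeq2 and 122 higher and 100 lower without a filter. Without 1 column they ranged from 18 to 780 higher and 3 to 588 lower, both extremes coming from leaving out WT column 1 or WT column 2; they were 26 and 18 without KO column 1 and 73 and 123 without KO column 2. A lone column was then assumed to vary like the other genotype. The replicate block called 322 higher and 280 lower; columns of like number share only a number, with a correlation of deviations of -0.0342. Of the list genes, 1 fell by DESeq2 and at 100 reads, 0 rose without a filter, and 0 to 1 rose and 0 to 2 fell without 1 column. Ctgf had no DESeq2 adjusted p. The causes were not tested. Depth limits Sphk1 most, with 12 to 35 reads in a column.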
